A study of Mus musculus with 2 samples.

Results

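Isolated MEF-only peaks are CTCF peaks called in mouse embryonic fibroblasts (MEFs) that have no ES cell peak anywhere near them. They were taken from the MEF list on chromosomes 1 to 19 as peaks with a score below 400 whose start lies more than 10 kb from the start of every peak in the embryonic stem (ES) cell list on the same chromosome. The rule found 24540 of them, which is 47.0% of the 52220 autosomal MEF peaks (95% Wilson interval 46.6 to 47.4) and 45.7% of all 53736 MEF peaks. The positions in both lists and the MEF score chose these peaks, so their number, their distance from ES peaks and their lack of an ES partner are descriptions of the rule and carry no test.

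CTCF is a zinc-finger protein that binds a long DNA motif and, together with the cohesin ring, holds the bases of chromatin loops. It is known for blocking contacts between enhancers and promoters when it lies between them, and for marking borders of chromatin domains. CTCF occupancy is known to be shared to a large extent among cell types, with a further part that differs between them.

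Binding was mapped by chromatin immunoprecipitation and sequencing, with 1 library per cell type and the same catalogue antibody against CTCF (Millipore) in both. The ES cells, pluripotent cells of the early embryo, have the background Bl3.10 and C57BL, and the MEFs, connective-tissue cells grown from embryos, have the background C57BL6. The labels give the same serum-containing DMEM medium for both and name no treatment, passage, sex or age. Differences of cell type, strain background and library cannot be told apart here, no p-value can be given, and every interval here covers counting error over peaks only. The ES list holds 44424 peaks, 43523 of them on autosomes. The deposited score is a whole number per peak that no label or file defines, so it serves only to rank or limit peaks within their own list. No reads or input background were analysed, so an isolated peak is a place where no ES peak was called within 10 kb, and the read signal of ES cells there is unknown.

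The score limit removed nothing from the set. Of the 85 autosomal MEF peaks with a score of 400 or more, none lay beyond 10 kb from an ES peak, and a count of 0 among 85 allows a share of up to 3.53%. Among the 52135 autosomal MEF peaks below the limit, 47.1% were isolated, 16254 (31.2%, 30.8 to 31.6) lay within 10 kb of an ES peak without overlapping it, and 11341 (21.8%, 21.4 to 22.1) overlapped one by at least 1 bp. Isolated peaks thus made up 60.2% (59.7 to 60.6) of the MEF peaks below the limit without an overlapping ES peak. With the roles of the lists exchanged, 16673 of 43401 autosomal ES peaks below 400, or 38.4%, were isolated from the MEF list. The MEF list is the longer one, and the part of list length in this difference was not tested.

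Isolated peaks had the same middle scores as the MEF peaks that merely missed an ES peak, and lower scores than those that overlapped one. The median score was 46 for isolated peaks (quartiles 34 and 61), 46 for peaks within 10 kb without overlap (33 and 63) and 64 for overlapping peaks (41 and 98). Of the isolated peaks, 45.3% (44.7 to 45.9) scored above 48, the median of autosomal MEF peaks below the limit. The share was 45.0% (44.3 to 45.8) for near peaks and 65.9% (65.0 to 66.7) for overlapping ones. The upper end set the isolated and the near peaks slightly apart. A score of 100 or more belonged to 4.86% of isolated peaks (4.60 to 5.13), 6.56% of near peaks (6.19 to 6.96) and 24.4% of overlapping peaks (23.6 to 25.2).

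**Figure D1:**
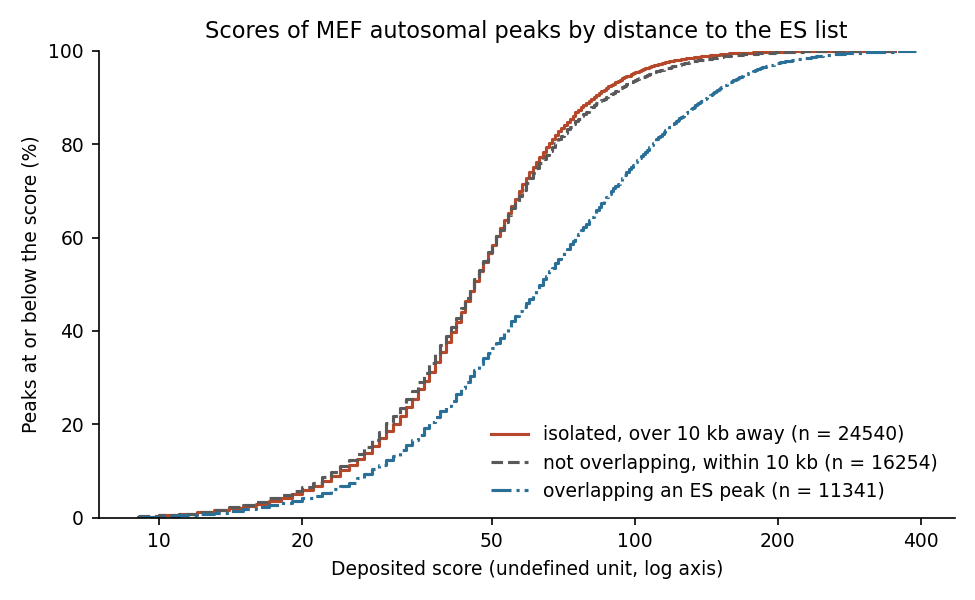
Cumulative percentage of autosomal MEF peaks below a score of 400 at or below each score (log axis), for isolated, near and overlapping peaks. The curves of isolated and near peaks, both with a median of 46, lie almost on each other until the higher scores, and the curve of overlapping peaks, with a median of 64, runs to their right.

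The isolated share was nearly level across most of the score range and fell only among high scores. Grouped by score into 10 sets of about equal size, isolated peaks made up 49.3% (47.9 to 50.6) of MEF peaks scoring 9 to 25 and 53.4% (52.0 to 54.8) of those scoring 39 to 43. They still made up 51.1% (49.7 to 52.5) at scores of 56 to 63. At 76 to 98 the share was 39.4% (38.0 to 40.7), and at 99 to 390 it was 24.1% (22.9 to 25.2). In that top group 54.6% of peaks overlapped an ES peak. Once overlapping peaks were set aside, the isolated share of the remainder moved much less. It was 58.0% in the lowest group, 62.3% at scores of 39 to 43 and 53.0% in the top group.

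The highest-scoring isolated peaks reached the top percent of the MEF list. The leader, scoring 353, occupies chromosome 5 from 125349355 to 125349753. A peak scoring 311 followed, also on chromosome 5, from 96379311 to 96379709. The next was a peak on chromosome 15 from 96767174 to 96767572, scoring 295. Scores of 283 and 272 belonged to peaks on chromosome 10 from 82417981 to 82418379 and on chromosome 19 from 61341598 to 61341996. These 5 peaks ranked 98, 127, 137, 153 and 169 among the 52220 autosomal MEF peaks. Of these, the chromosome 19 peak was the farthest from the ES list, with its nearest ES peak 65.9 kb away, and the chromosome 15 peak the closest, at 11.7 kb. The chromosome 10 peak had another MEF peak 2.34 kb away, whereas the other 4 had none within 15 kb.

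Most isolated peaks lay well beyond the limit that chose them. The median distance to the nearest ES peak was 32.8 kb (quartiles 18.1 and 66.1 kb). The nearest ES peak was more than 20 kb away for 70.7% of isolated peaks, more than 50 kb for 34.1%, more than 100 kb for 14.7% and more than 200 kb for 4.53%. Only 68 peaks lay more than 500 kb away. Isolated ES peaks by the mirrored rule lay closer to the MEF list, with a median of 25.2 kb (quartiles 15.7 and 44.5 kb). These ES peaks were measured to the longer list, and the part of list length in this difference was not tested. The score did not follow the distance. Peaks 10 to 20 kb from an ES peak had a median score of 46 (quartiles 34 and 62), and those more than 200 kb away had a median of 47 (36 and 62).

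Pooled over the autosomes, MEF peak density was lower at every step of distance from the ES list, also inside the range that the rule selects. Territory far from ES peaks comes mainly from long intervals between them, so the steps also compare intervals of different length. It includes bases where no peak could be called, and the longest interval, 7418 kb on chromosome 7, held no MEF peak. What such sequence adds to the fall was not tested. Counted per Mb of autosome lying at a given distance from the nearest ES peak start, the density was 49.9 MEF peaks per Mb from the edge of overlap to 1 kb (exact Poisson interval 47.9 to 52.0) and 23.0 (22.4 to 23.6) at 5 to 10 kb. Within the isolated range it was 19.5 (19.1 to 19.97) at 10 to 20 kb, 15.5 (15.2 to 15.8) at 20 to 50 kb, 12.0 (11.6 to 12.3) at 50 to 100 kb and 9.06 (8.71 to 9.42) at 100 to 200 kb. It was 6.21 (5.85 to 6.59) beyond 200 kb. No step stands out at 10 kb. Territory beyond 10 kb from any ES peak made up 74.6% of the autosomal span, or 1800 Mb, and held 13.6 MEF peaks per Mb. Territory from the edge of overlap to 10 kb held 28.1 per Mb, so the density beyond the limit was 0.485 times that within it (exact binomial interval 0.475 to 0.494). For ES peaks around the MEF list the ratio was 0.448 (0.438 to 0.458), and the density beyond 200 kb was 2.39 peaks per Mb (2.07 to 2.74). Territory remote from the other list thus held fewer ES than MEF peaks per Mb, with the MEF list being the longer one.

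**Figure D2:**
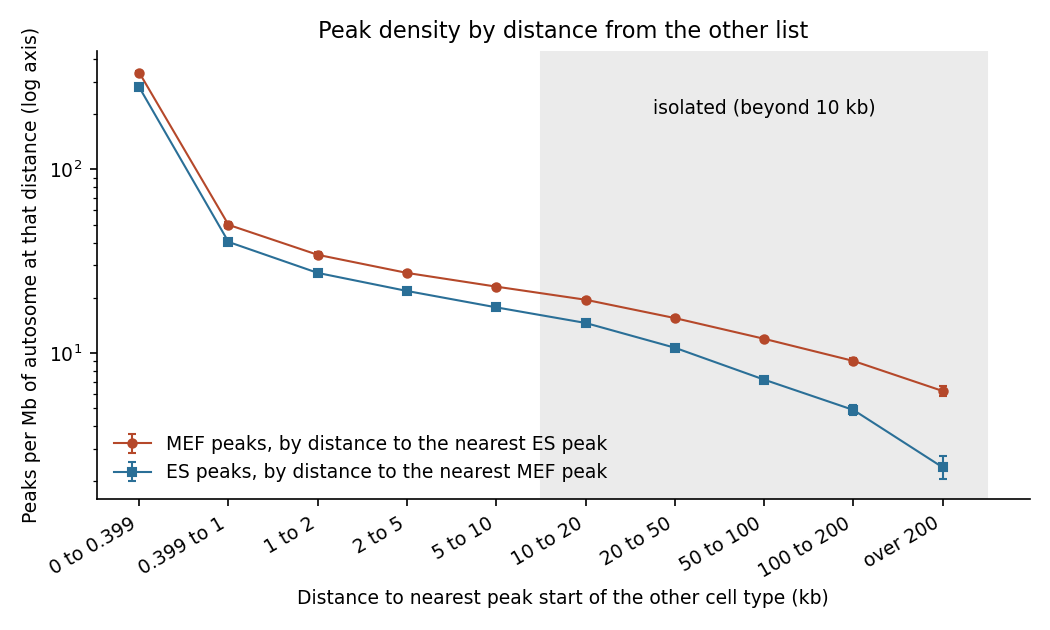
Peaks per Mb of autosome (log axis) by distance to the nearest peak start of the other cell type in kb, for MEF and ES peaks, with 95% exact Poisson intervals and the isolated range shaded. Both densities fall at every step, in MEFs from 19.5 per Mb at 10 to 20 kb to 6.21 per Mb beyond 200 kb.

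Isolated peaks filled the intervals between neighbouring ES peaks unevenly. Of the 43504 intervals, 22781 were longer than 20 kb and could hold an isolated peak, and 11244 of these (49.4%, 48.7 to 50.01) did. The share with at least 1 isolated peak was 23.0% (22.2 to 23.8) for intervals of 20 to 50 kb, 59.1% (57.8 to 60.3) for 50 to 100 kb, 78.4% (77.1 to 79.7) for 100 to 200 kb and 95.4% (93.0 to 96.9) for those over 500 kb. Longer intervals held more isolated peaks each but fewer per Mb of available sequence, from 23.0 per Mb in intervals of 20 to 50 kb to 7.01 per Mb in those over 500 kb. Available sequence here again includes bases where no peak could be called. Along the available part of an interval the peaks were spread almost evenly. Beyond 10 kb, the fall of density with distance was thus seen between intervals of different length more than within them. Divided into 5 equal stretches, the part nearest the left ES peak held 21.0% of isolated peaks (20.5 to 21.5), the middle stretch 19.6% (19.1 to 20.1) and the part nearest the right ES peak 20.1% (19.6 to 20.6). Only 38 isolated peaks lay outside the outermost ES peaks of a chromosome.

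A single interval on chromosome 4 held the most isolated peaks and 3 of the 5 that lay farthest from any ES peak. It spans 1877 kb between ES peaks starting at 29506443 and 31383773. The MEF list has 23 peaks there, all isolated, with scores from 9 to 107 and a median of 50, and neighbouring starts lie a median of 54.1 kb apart. Its 3 remotest peaks are at 30441160 to 30441558 with a score of 50, at 30427130 to 30427528 with 43 and at 30475510 to 30475908 with 31, between 908 and 935 kb from an ES peak. The other two of the farthest 5 are lone peaks. On chromosome 5 a peak at 94949404 to 94949802 with a score of 17 is 1192 kb from both the nearest ES and the nearest MEF peak. On chromosome 14 a peak at 4864530 to 4864928 with a score of 50 is 1147 kb from the nearest ES peak and 1376 kb from the nearest MEF peak. The longest intervals of the ES list were not the richest. The interval of 7418 kb on chromosome 7 from 39112373 to 46530348 held no MEF peak at all, and that of 2974 kb on chromosome 8 from 20020220 to 22993961 held 2. These intervals were picked after their values were seen.

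As a subset must be, isolated peaks were more widely spaced than the MEF list as a whole, with a median of 59.7 kb between neighbouring isolated starts (quartiles 18.6 and 131 kb) against 22.0 kb (6.93 and 54.9 kb) for all autosomal MEF peaks. Many nevertheless had company of their own kind. Another isolated peak lay within 50 kb of 68.8% (68.2 to 69.3) and within 10 kb of 29.98% (29.4 to 30.6). For 73.8% (73.3 to 74.4) the nearest MEF peak of any kind was itself isolated, and 47.0% of all autosomal MEF peaks were isolated. The rule makes a high value likely here, because neighbouring peaks tend to lie at similar distances from the ES list. In the 50% of MEF peaks with the highest scores, taken alone, another isolated peak lay within 50 kb of 44.4%. Across all autosomal MEF peaks, 88.9% had another MEF peak within 50 kb. For isolated peaks the corresponding share, counting any MEF peak, was 81.9% (81.4 to 82.4). Near and overlapping peaks had a MEF peak within 50 kb in 95.2% of cases each. The isolation from the ES list therefore went together with fewer MEF neighbours at close range as well. The rule shapes this contrast, because a MEF peak that overlaps an ES peak cannot lie much closer than 10 kb to an isolated peak. How far the contrast goes beyond that was not tested. Any MEF peak lay within 10 kb of 33.1% (32.5 to 33.7) of isolated peaks, 66.3% (65.6 to 67.1) of near peaks and 64.5% (63.6 to 65.3) of overlapping peaks. For isolated peaks this share was 17.7% in the 50% of MEF peaks with the highest scores. Fewer possible neighbours remain in that part of the list, which bears on this share and on the 44.4% above. Near and overlapping peaks were not recomputed in it.

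Self-clustering was compared between peak sets of different size, so the shares below depend on how many peaks a set holds. A peak of the same set lay within 50 kb of 76.4% (75.7 to 77.0) of the 16254 near peaks and 65.3% (64.4 to 66.1) of the 11341 overlapping peaks. For the 16673 isolated ES peaks it was 59.7% (59.0 to 60.5). Pairs at very short range were rare among isolated peaks. Another isolated peak lay within 1 kb of 4.82% (4.56 to 5.10), against 4.79% (4.48 to 5.13) in the isolated ES set, whereas 11.4% (11.1 to 11.7) of all autosomal MEF peaks had a MEF peak that close. Close pairing went with little change in median score but with a somewhat larger share of high scores. The median was 45 for the 1183 isolated peaks with another within 1 kb and 46 for the others, and scores of 100 or more belonged to 6.68% (5.39 to 8.25) and 4.77% (4.50 to 5.05). At the other extreme, 4446 isolated peaks (18.1%, 17.6 to 18.6) had no other MEF peak within 50 kb, and 639 (2.60%, 2.41 to 2.81) had no peak of either list within 100 kb.

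Joining isolated peaks whose neighbouring starts lay at most 50 kb apart gave 13471 runs. Single peaks made up 7668 of these runs, pairs 3105, runs of 3 peaks 1386 and runs of 4 peaks 673. Runs of 5 to 9 peaks numbered 623 and runs of 10 or more 16, spread over 10 autosomes. The 639 runs of at least 5 held 3812 isolated peaks, 15.5% of the set, and spanned a median of 87.3 kb. In 349 of them (54.6%) no ES peak lay within the span. The isolated ES peaks formed 294 runs of at least 5, holding 10.6% of that set, and their longest run had 14 peaks. That set is smaller, with 16673 peaks against 24540, and larger sets form more runs. With the MEF list shortened by score to as many peaks as the ES list, runs of at least 5 numbered 345. The part of set size in the difference was not tested. The number of runs depends strongly on the settings: joining at 20 kb gave 123 runs of at least 5 and joining at 100 kb gave 1591, and keeping just the 50% of MEF peaks with the highest scores gave 43. Peaks in runs scored like single ones, with a median of 46 (quartiles 34 and 61) for single peaks and 46 (34 and 62) for peaks in runs of 5 or more.

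The longest run was on chromosome 7 from 26265889 to 26602033, with 24 isolated peaks in 336 kb. Its scores run from 23 to 100 with a median of 42, and 10 of the 24 exceed the list median of 48. The left part is a stretch of 14 isolated peaks without any ES peak between them. It begins at 26265889 with a score of 94, goes on at 26304255 with 60, 26326517 with 87, 26340660 with 42 and 26353769 with 48, and ends in a trio at 26471649, 26473068 and 26473713 with scores of 39, 28 and 38. The peak at 26340660 is 133 kb from the nearest ES peak, the most in this run. A tight group of 4 follows at 26504975, 26506145, 26506765 and 26507674, with scores of 100, 32, 73 and 34. All 7 ES peaks and 3 other MEF peaks within the span lie to the right of the stretch of 14, and 1 of those 3 overlaps an ES peak.

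The next longest runs differed in how they mixed with the ES list. On chromosome 2 from 35115276 to 35418834, 15 isolated peaks with scores from 12 to 135 (median 58) shared 304 kb with 8 ES peaks, none closer than 11.7 kb to an isolated peak. In it, 11 of 15 scored above the list median, the highest at 35395065 with 135 and at 35400120 with 110. Its peaks at 35204742 and 35205068 overlap each other. On chromosome 6 from 34548293 to 34728370, 13 isolated peaks with scores from 19 to 86 (median 52) lay in 180 kb with 2 ES peaks. That run opens with 3 peaks within 2.42 kb, at 34548293, 34549833 and 34550715, with scores of 53, 53 and 86. It closes with a pair at 34726975 and 34727972 with scores of 26 and 82. The run on chromosome 1 from 73972803 to 74043205 was the only one of the 5 longest without any ES peak or other MEF peak inside it. It has 12 isolated peaks in 70.4 kb, scoring from 13 to 143 with a median of 37.5. The fifth, on chromosome 2 from 27771238 to 27897624, has 11 isolated peaks in 126 kb with 3 ES peaks and 6 further MEF peaks among them.

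Some runs were packed into a few kb. Among runs of at least 5, the tightest was on chromosome 10 from 24315397 to 24320023, where 5 isolated peaks lay in 4.63 kb. They start at 24315397, 24317071, 24317365, 24318706 and 24319625 and score 37, 58, 94, 48 and 60, and the nearest ES peak is at least 22.7 kb from each. The peaks at 24317071 and 24317365 overlap each other, and merged they would leave fewer than 5 peaks in this run. On chromosome 7 from 150946105 to 150953608, 5 peaks in 7.50 kb scored 41, 37, 27, 157 and 53, so that 1 peak, at 150949747, stood far above its neighbours. On chromosome 2 from 146437893 to 146447301, 5 peaks in 9.41 kb scored 140, 38, 40, 45 and 10. On chromosome 19 from 34315738 to 34326163, 5 peaks in 10.4 kb scored 40, 9, 56, 43 and 83, and the nearest ES peak was at least 55.5 kb away. On chromosome 7 from 134329182 to 134339736, 5 peaks in 10.6 kb scored 58, 38, 47, 92 and 52. None of these 5 runs had an ES peak or any other MEF peak within its span. Such compact runs were few in either list. Of the runs of at least 5, 12 of 639 in MEFs and 11 of 294 among isolated ES peaks spanned 20 kb or less, a limit picked after the values were seen.

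**Figure D3:**
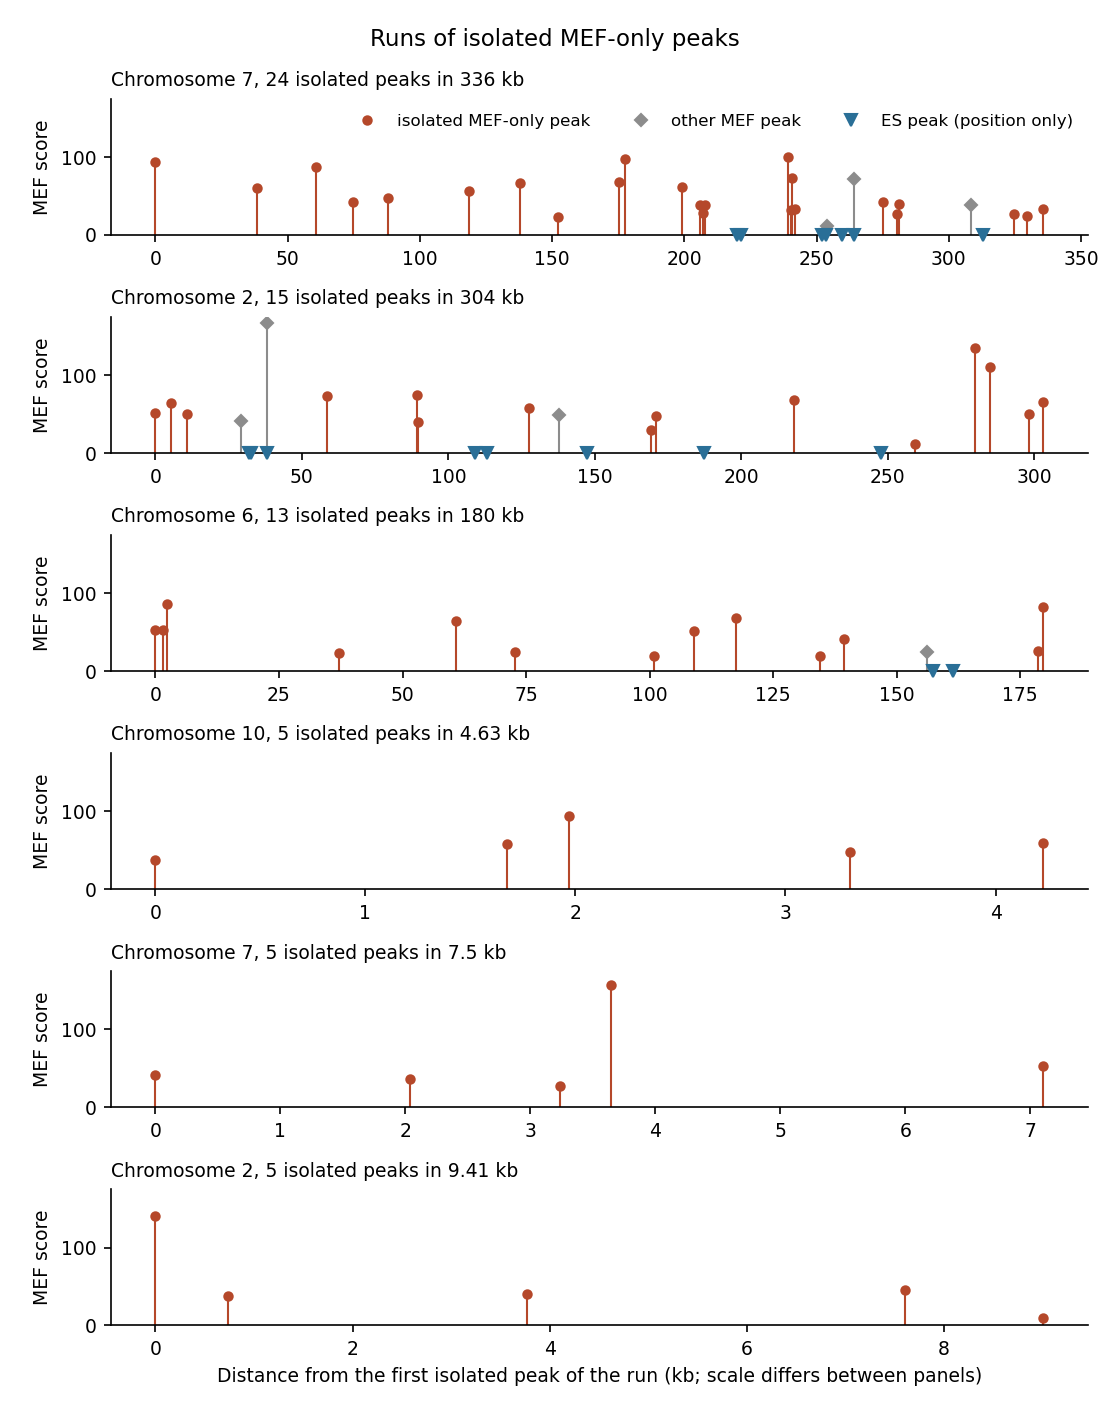
MEF scores of peaks along the 3 longest and the 3 tightest runs of isolated MEF-only peaks, against distance in kb from the first isolated peak (scales differ). Triangles mark positions of ES peaks, with no score. ES peaks lie among the isolated peaks of the 3 long runs, and none lies within the 3 tight runs of 4.63, 7.50 and 9.41 kb.

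Isolated peaks varied less in density between the 19 autosomes than the whole MEF list did. They numbered from 8.71 per Mb on chromosome 7 to 11.6 per Mb on chromosome 11, while all MEF peaks ranged from 18.0 per Mb on chromosome 14 to 31.5 per Mb on chromosome 11. The isolated share of MEF peaks therefore ran from 36.7% (35.1 to 38.2) on chromosome 11 to 56.3% (54.0 to 58.6) on chromosome 18. Its standard deviation over the 19 chromosomes was 6.10 percentage points. The intervals of 9 chromosomes (1, 3, 6, 10, 12, 13, 14, 16 and 18) lay above the autosomal 47.0%, and those of 8 (4, 5, 7, 9, 11, 15, 17 and 19) lay below it. Shares were low where ES peaks were dense, with a Spearman's rho of -0.94 between the isolated share and ES peaks per Mb over the 19 chromosomes. The rule makes such a relation likely, because each ES peak removes the sequence around it, and chromosomes share 1 library and are not replicates. Chromosome 11, with 28.7 ES peaks per Mb, had 63.9% of its span beyond 10 kb from an ES peak, the lowest share of the 19. Within that sequence it had 18.1 isolated peaks per Mb, the highest value, against 11.8 on chromosome 7, the lowest. The chromosome 7 sequence includes intervals of 7418 and 2375 kb without a MEF peak. Every base counts as territory, whether or not a peak could be called there. Median scores differed little, from 45 to 47, and 63.6% (chromosome 14) to 73.2% (chromosome 13) of isolated peaks had another within 50 kb. Isolated MEF peaks outnumbered isolated ES peaks on all 19 autosomes, by 1.10 times on chromosome 5 and up to 1.73 times on chromosome 3. All MEF peaks also outnumbered all ES peaks on each autosome, with 3268 against 3214 on chromosome 5 and 2907 against 2113 on chromosome 3. Over all autosomes MEFs supplied 59.5% (59.1 to 60.02) of isolated peaks and 54.5% (54.2 to 54.9) of all peaks.

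**Figure D4:**
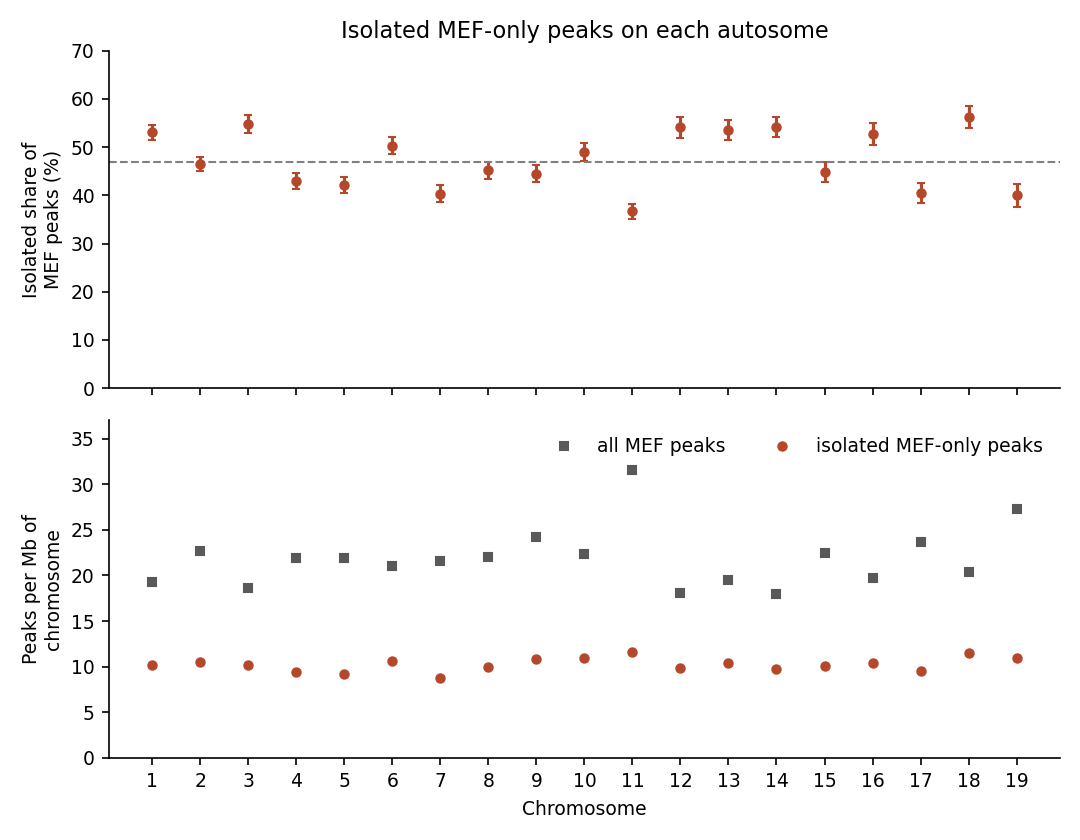
Isolated share of MEF peaks on each autosome in % with 95% Wilson intervals and the autosomal value of 47.0% dashed (top), and peaks per Mb of chromosome for all and for isolated MEF peaks (bottom). Isolated peaks stay between 8.71 and 11.6 per Mb, while all MEF peaks range from 18.0 to 31.5 per Mb.

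Nearly every part of the autosomes that had MEF peaks had isolated ones. Of the 2398 windows of 1 Mb with a MEF peak, 2394 (99.8%) held at least 1 isolated peak. The median was 10 isolated peaks per window (quartiles 7 and 13), against 19 MEF peaks (11 and 30). The variance of the count per window was 2.03 times its mean for isolated peaks and 9.27 times for all MEF peaks. By this measure isolated peaks were less concentrated than the list they came from. A smaller set tends to give a lower ratio by itself, and the rule removes MEF peaks where ES peaks are dense. How much of the difference, here and for the richest windows below, goes beyond that was not tested. The 240 windows richest in MEF peaks held 23.7% of all autosomal MEF peaks, and the 240 windows richest in isolated peaks held 18.3% of these. Of the 240 windows in each group, 61 were in both.

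As windows became richer in MEF peaks, the number of isolated peaks levelled off. It rose from a mean of 5.85 per window in windows with 5 to 9 MEF peaks to 12.3 in windows with 20 to 29 and 13.4 in windows with 30 to 49, and was 12.8 in windows with 50 to 103. The isolated share fell over the same groups from 82.3% (80.8 to 83.7) to 51.0% (50.1 to 51.8), 36.4% (35.7 to 37.1) and 21.3% (20.4 to 22.3). The rule contributes to both patterns wherever such windows are also rich in ES peaks, and its part was not tested. In 273 windows every MEF peak was isolated, and 196 of these had at least 5 MEF peaks. The scores of isolated peaks hardly followed the density of their surroundings. Their median was 46 in windows with up to 9 MEF peaks and 45 in windows with 50 or more, and overlapping peaks in the same windows had medians of 61 and 64.

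**Figure D5:**
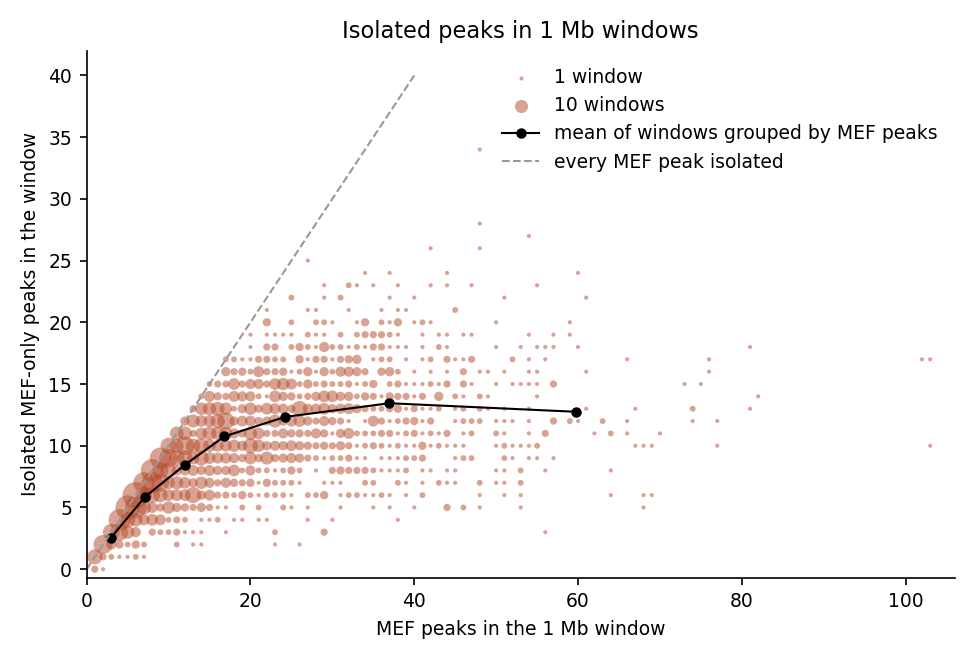
Isolated MEF-only peaks against all MEF peaks in 1 Mb autosomal windows, with circle area for the number of windows, the mean of windows grouped by MEF peaks in black, and a dashed line where every MEF peak is isolated. The mean rises to 13.4 isolated peaks at 30 to 49 MEF peaks and is 12.8 at 50 to 103, and the highest point is the window with 34.

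Isolated peaks were most numerous in windows of chromosomes 7, 1 and 2. The chromosome 7 window from 26000001 to 27000000, which contains the longest run, held 34 isolated peaks among 48 MEF peaks, and 6 isolated ES peaks. Its isolated peaks scored from 18 to 100 with a median of 39.5. Chromosome 1 from 93000001 to 94000000 held 28 among 48, with a median score of 46.5, and 7 isolated ES peaks. Chromosome 2 from 27000001 to 28000000 held 27 among 54, with a median score of 48, and 9 isolated ES peaks. In windows with at least 10 MEF peaks, the highest isolated share was 100%. It was reached by 40 windows, of which those with most MEF peaks are named here. On chromosome 7 from 59000001 to 60000000 all 17 MEF peaks were isolated, with scores from 25 to 121. On chromosome 14 from 17000001 to 18000000 all 17 were isolated as well, with scores from 24 to 111. On chromosome 5 from 40000001 to 41000000 all 15 were, with scores from 19 to 117. Equal to it, on chromosome 18 from 50000001 to 51000000, all 15 were isolated with scores from 14 to 116. These windows held 4, 6, 4 and 7 ES peaks, in the same order, each of which was in turn isolated from the MEF list. Distance is mutual, so this follows from choosing windows with a share of 100%, except near window edges. Windows named here are the extremes of 2398.

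Scores on either side of the distance limit overlapped. The 3 nearest beyond it, each 10001 bp from an ES peak start, scored 97 (chromosome 8 at 113361154), 34 (chromosome 4 at 133216208) and 58 (chromosome 10 at 45077947). The 3 nearest within it, at 10000, 9994 and 9994 bp, scored 111 (chromosome 9 at 36921861), 31 (chromosome 6 at 87482325) and 74 (chromosome 9 at 107610973). There were 954 isolated peaks between 10 and 11 kb and 1060 MEF peaks between 9 and 10 kb. At the score limit there was nothing to compare, since the highest-scoring isolated peaks, at 353, 311 and 295, lie below 400 and no isolated peak lies above it.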

How the data were processed

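CTCF ChIP-seq peak lists of 1 ES and 1 MEF library were used. The score of each peak is as deposited by the authors, 1 list per library, in an undefined unit, and files carry no header. The genome build is mm9, per the submitters' processing notes. Aligner, peak caller, threshold, input and depth were not given in the sources used here. All peaks have 1 width, so overlap follows from the distance between starts. Printed starts are the deposited BED starts plus 1, which counts bases from 1, and ends are as deposited.

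Distances run between starts. Windows of 1 Mb begin at the first base of a chromosome and hold peaks by midpoint. The span of a chromosome reaches from its first to its last peak in either list. Shares carry 95% Wilson intervals, densities exact Poisson and density ratios exact binomial intervals. The member count was checked with bedtools 2.31.1, and the distance and territory code was tested on simulated lists. Computations used scipy 1.17.1, numpy 2.4.6 and pandas 2.3.3 under Python 3.11.15, and figures matplotlib 3.10.9.

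Regions were named by rule: the 5 highest-scoring and the 5 farthest isolated peaks, the 5 longest and the 5 tightest runs of at least 5, the 3 windows with most isolated peaks, the 3 with the highest share among those with at least 10 MEF peaks, the chromosomes with the highest and lowest share, and the 3 peaks on either side of each limit. The set and all lists were chosen with earlier results of these data known. Alternatives were other distance limits, no score limit, higher-scoring parts of a list, an equal list length, merged peaks and other joining distances and windows. No mm9 sequence or annotation was used here, so no gene or sequence is attached to a position.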

Additional observations from a re-analysis of the deposited data

Results flagged for a closer look

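Peaks outside chromosomes 1 to 19 enter none of the comparisons above, and more than 3 peaks by the same distance and score rule were taken as a signal there. On chromosome X 1020 of 1393 MEF peaks were isolated from the ES list (73.2%, 95% Wilson interval 70.8 to 75.5), a larger share than on any autosome, with a median score of 44. On random and unplaced sequences 31 of 101 were (30.7%, 22.5 to 40.3), with a median score of 36. Of the 44424 ES peaks, 43523 are autosomal, and the others lie on chromosome X or on the remaining sequences. On autosomes the isolated share was also high in 1 Mb windows with few MEF peaks, at 82.3% with 5 to 9 and 70.5% with 10 to 14. Peak density on chromosome X was not set against these windows. The rule favours a high isolated share where ES peaks are sparse, and the labels name no sex. The cause of the share on chromosome X was not tested.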

How the results depend on the processing

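Recomputed under the alternatives, 35 of 79 values remained inside the counting interval of the reported one (1.5 times for numbers of peaks or runs) and 44 moved beyond it, although many shifts are small. Removing the score limit changed nothing. With a distance limit of 5 kb and of 20 kb, in that order, the isolated share of MEF peaks was 58.4% and 33.2%, the median distance to an ES peak 24.4 and 48.3 kb, and the share with another isolated peak within 50 kb 75.3% and 62.3%. The share with any MEF peak within 10 kb was then 38.5% and 29.9%, the number of runs of at least 5 was 1197 and 283, and the highest chromosomal share 66.1% and 42.9%. At 5 kb the density ratio was 0.458, and at 20 kb 99.3% of windows held an isolated peak. With the higher-scoring 50% of the MEF list there were 11213 isolated peaks, 42.8% of that list, with a median score of 63, and 39.4% scored above the list's own median. Another isolated peak lay within 50 kb of 44.4%, any MEF peak within 10 kb of 17.7%, runs of at least 5 numbered 43, and 98.8% of windows held an isolated peak. With the higher-scoring 50% of the ES list 64.5% were isolated, the median score was 47, 46.4% scored above the list median, and the median distance was 46.5 kb. The clustering shares were 78.7% and 39.8%, runs of at least 5 numbered 1594, and the highest chromosomal share was 70.6%. When the MEF list was shortened by score to as many peaks as the ES list, the isolated share was 46.5%, the median score 51 and the share above the list median 42.3%, the clustering shares were 62.8% and 28.0%, and runs numbered 345. Merging overlapping MEF peaks gave an isolated share of 47.7%, 43.5% above the list median and 32.0% with a MEF peak within 10 kb. Another isolated peak lay within 20 kb of 44.6% and within 100 kb of 87.3%. Joining at 20 kb gave 123 runs and at 100 kb 1591. In windows of 500 kb 98.9% held an isolated peak. Chromosome 18 had the highest share under each alternative tried for it. The cause was not tested where a value moved. Most alternatives leave a smaller or larger number of peaks, and the part of that number was not tested either. No paired analysis was possible because there is a single library of either cell type. What sequencing depth, which is unknown, does to the set of isolated peaks was not tested.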
